A study of Mus musculus with 12 samples.

Results

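Chemokines are small secreted proteins that guide leukocytes through tissue, and the genes described here are the chemokine ligands and their receptors, followed in lung and liver of mice with and without a mammary tumor. Members were taken by gene symbol, as the numbered Ccl, Cxcl, Ccr and Cxcr genes with Cx3cl1, Cx3cr1, Xcl1 and Xcr1, leaving out Ccr1 and Cxcr2. This gave 47 genes with 63 probe sets, 32 of them ligands and 15 receptors, of 12393 genes and 22626 probe sets on the array. The rule reads symbols and no measured value, but it was set with earlier results of these data known. The counts below do not cover Ccr1 and Cxcr2.

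The mice were females of the strain nude NCR, which lack a working thymus and so have few mature T cells. In the tumor-bearing group 4T1 cells had been grown as an orthotopic tumor. 4T1 is a mouse mammary carcinoma line that metastasizes in its host. Controls were injected with phosphate-buffered saline (PBS) instead. Tissue was taken 7 days after injection, and the labels call the tissue of tumor-bearing mice pre-metastatic. Lung and liver came from 3 mice per condition, giving 4 groups of 3 arrays, 12 in all. The labels give no age and do not say which lung and liver shared a mouse. The comparison of tumor-bearing with control mice asks what differs in each organ, and here which chemokine signals do.

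Chemokines bind G protein-coupled receptors on the leukocyte surface, and the receptor a cell carries decides which chemokines it follows. Ligands of Cxcr2, Cxcl1 among them, attract neutrophils. Ccl2 and related ligands draw monocytes through Ccr2, and Cxcl9, Cxcl10 and Cxcl11, which interferon induces, draw activated T and natural killer (NK) cells through Cxcr3. Others are homeostatic, such as Cxcl12, which holds Cxcr4-bearing cells in bone marrow and other tissues.

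Values are log2 GCRMA values per probe set, a background-corrected and quantile-normalized microarray intensity. All arrays shared a lowest value of 2.044, and 26.7% to 28.5% of the values of an array lay within 0.05 of it. A gene was tested in a comparison where its probe set with the highest mean read above 4 on at least 3 of the arrays compared, and a log2 difference of 1 is a doubling. The arrays carried the markers of their labelled organs, with lung epithelial markers averaging 13.43 to 13.97 on lung arrays and hepatocyte markers 15.55 to 15.64 on liver arrays. Among the lung arrays, tumor replicate 1 and control replicate 3 carried the most hepatocyte transcripts, with averages of 9.70 and 11.03. The other 4 lung arrays had 4.16 to 6.07. Neutrophil markers averaged 8.25 to 8.80 in tumor-bearing lungs, where controls had 4.62 to 5.37. Of the 10 tested 5 were called higher, beside 0.62% of all genes tested. Among those tested, Mmp8, Camp, Ltf, Cd177 and Itgam passed the filter only through the tumor-bearing lungs, where they are high, so the filter favoured a difference. B cell markers averaged 4.75 to 4.94 in tumor-bearing and 3.55 to 3.85 in control lungs. Of these, 4 of 4 tested had a higher mean and 1 was called, Cd79b, part of the B cell receptor (7.80, 7.87 and 7.71 against 5.57, 5.62 and 5.73; limma adjusted p = 0.00163).

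Promoter sequence is shown for 3 ligands that lie on the same chromosome and had different array patterns: Cxcl1 and Cxcl10, whose liver arrays separated tumor-bearing from control mice, and Cxcl2, a close relative of Cxcl1 that was at the lowest value on every array. Each run is the 250 bases before the gene's start in RefSeq (GRCm38.p6), 5′ to 3′ on the gene's strand. Capitals mark matches on either strand to the NF-kappa-B consensus and, at the 5′ end of the Cxcl10 run, to the core of the interferon-stimulated response element, which is TTTC followed after any 2 bases by TTTC.
Cxcl1, chr5:90890995-90891244, plus strand: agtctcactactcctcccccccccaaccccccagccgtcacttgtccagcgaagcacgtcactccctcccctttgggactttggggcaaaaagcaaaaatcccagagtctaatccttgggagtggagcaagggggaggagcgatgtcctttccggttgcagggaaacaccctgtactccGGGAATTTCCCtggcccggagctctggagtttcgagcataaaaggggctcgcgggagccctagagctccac
Cxcl2, chr5:90903649-90903898, plus strand: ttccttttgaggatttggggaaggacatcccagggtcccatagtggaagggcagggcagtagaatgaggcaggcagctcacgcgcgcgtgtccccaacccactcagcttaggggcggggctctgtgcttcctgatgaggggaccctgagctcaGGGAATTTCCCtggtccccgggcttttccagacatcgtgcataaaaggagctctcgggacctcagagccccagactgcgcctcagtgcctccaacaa
Cxcl10, chr5:92348890-92349139, minus strand: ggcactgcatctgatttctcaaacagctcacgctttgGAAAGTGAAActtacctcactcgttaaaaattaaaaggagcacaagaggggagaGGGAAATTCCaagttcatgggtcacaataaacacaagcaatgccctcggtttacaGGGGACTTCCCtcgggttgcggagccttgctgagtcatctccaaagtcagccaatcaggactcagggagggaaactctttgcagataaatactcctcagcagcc
The capitals of Cxcl1 and Cxcl2 hold the same 11 bases, and each stands for matches on both strands that overlap. The NF-kappa-B consensus was found in the same window in 8 of the 38 promoters listed for 34 member genes. It was found in 7.25% of all 32851 promoters of that length. The interferon-stimulated core was found in 2 of the 38, those of Cxcl10 and Cxcl14, and in 2.98% of all promoters. The matches describe letters in these windows and not binding.

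Most chemokine genes were under the filter in both tissues. Of the 47 genes, 13 were tested in both organs, 4 in lung only (Cx3cl1, Cxcl15, Cxcl17 and Cxcr4), 2 in liver only (Ccl24 and Cxcl9) and 28 in neither, the last being 16 ligands and 12 receptors. For 14 genes every probe set stayed within 0.05 of the lowest value on all 12 arrays. Among these were the inflammatory ligands Ccl3, Ccl4, Ccl12, Cxcl2 and Cxcl5, and the T cell chemokine receptors Cxcr3 and Ccr4. The others were Ccl1, Ccl20, Xcl1, Ccr6, Ccr8, Ccr10 and Ccr1l1. Low readings on these probe sets do not show that the transcripts are absent.

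In lung, 17 chemokine genes were tested and 0 were called with limma at an adjusted p under 0.05, beside 0.734% of the 7907 genes tested. At an unadjusted p under 0.05 there were 2 (Cxcl17 and the probe set that represents Ccr2), beside 13.2% of all genes. The mean was higher in tumor-bearing lungs for 11 of the 17 and lower for 6, with a median log2 change of 0.050 against -0.014 over all genes tested. Tumor and control arrays did not overlap for 2 genes that read higher (8.99% of all genes) and 1 that read lower (9.57% of all genes).

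In liver, 15 were tested and 0 were called, beside 1.87% of the 7712 genes tested, with 2 at an unadjusted p under 0.05 (Cxcl1 and Cxcl10) beside 25.9% of all genes. The mean was higher in tumor-bearing livers for 11 of the 15, all of them ligands, and lower for 4, with a median log2 change of 0.40 against -0.066 over all genes tested. Arrays did not overlap for 2 genes that read higher (10.4% of all genes) and for Ccl27a, which read lower (22.7% of all genes).

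The tumor effect was compared between organs as lung minus liver for 20 chemokine genes, of which 0 were called, beside 1.55% of the 8433 genes tested. At an unadjusted p under 0.05 there were 3, Cxcl17, Cxcl1 and Cxcr4, beside 17.2% of all genes. The effect was higher in lung for 10 of the 20 and higher in liver for the other 10. Of these 20 genes 13 had been tested in both organs. Cx3cl1, Cxcl15, Cxcl17 and Cxcr4 were under the filter in liver, Ccl24 and Cxcl9 in lung, and Cxcl13 in both. For these genes, Cxcl17 and Cxcr4 among them, the difference includes readings under the filter.

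**Figure D1:**
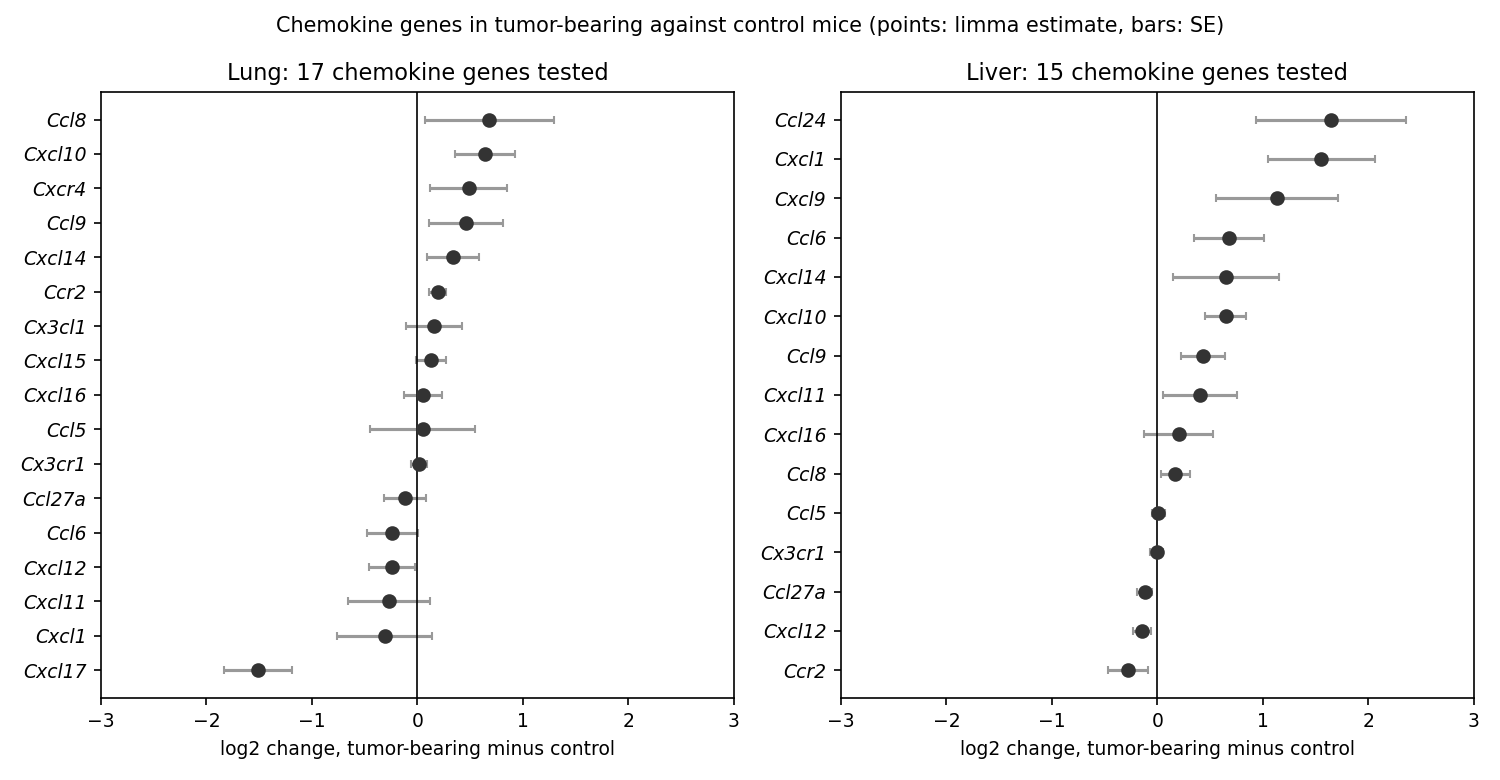
Log2 change of each tested chemokine gene between tumor-bearing and control mice, as limma estimates (points) with standard errors (bars), for 17 genes in lung and 15 in liver (n = 3 arrays per group). In lung most points lie near 0 and Cxcl17 stands lowest at -1.51, while in liver Ccl24 and Cxcl1 stand highest at 1.65 and 1.56.

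Ccr2, the receptor that carries inflammatory monocytes out of bone marrow and into tissue, read higher in tumor-bearing than in control lungs on the probe sets that had room to vary. Probe set 1421187_at read 5.31, 6.38 and 4.81 in tumor-bearing lungs against 3.38, 3.14 and 2.78 in control lungs. The lowest tumor array lay above the highest control array. On all 6 liver arrays this probe set was at the lowest value of 2.04. Probe set 1421186_at read 5.94, 5.58 and 4.12 in tumor-bearing against 3.14, 3.29 and 2.37 in control lungs, again without overlap, and 2.04 to 2.45 in liver.

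The difference for 1421187_at in lung was 2.40 ± 0.42 (log2, SE) with a limma adjusted p of 0.107 over every probe set, and for 1421186_at it was 2.28 ± 0.52 with an adjusted p of 0.177. Neither passed the threshold, beside 0.407% of all probe sets tested that did; groups of arrays did not overlap in this direction for 8.1% of them. Taking control arrays below the filter at the filter value of 4, the folds were at least 2.83 and at least 2.32. Over the alternatives the adjusted p of 1421187_at ran from 0.00396, with all 12 arrays in 1 fit, to 0.488, and that of 1421186_at from 0.0169 in the same fit to 0.55. That fit pools the spread of lung and liver arrays. The liver arrays had no spread on 1421187_at and little on 1421186_at, so its results do not measure the spread among lungs alone.

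The probe set that represented Ccr2 by its mean, 1421188_at, varied less in lung. It read 5.45, 5.57 and 5.52 in tumor-bearing lungs, 5.32 on each control lung array and 4.62 to 5.32 in liver. The tumor-bearing and control lungs did not overlap on it either, by a narrow margin. In lung its difference was 0.19 ± 0.079 (log2, SE; limma adjusted p = 0.379). Since 7 of its 12 values lay within 0.05 of their median, it gives little information on the transcript. What Ccr2 shows with 1 probe set per gene therefore depends on the probe set chosen.

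The tumor effect on 1421187_at differed between lung and liver by 2.40 ± 0.45 (log2, SE; limma adjusted p = 0.0372 over every probe set tested, beside 1.34% of them called). Both this probe set and 1421186_at passed the filter only through the 3 tumor-bearing lungs, where they are high, so the filter itself favoured a difference; with no filter the adjusted p of 1421187_at was 0.0797. With 1 representing probe set per gene Ccr2 did not pass in this comparison. The difference equals the lung change because the liver arrays were all at the lowest value. Having no spread, these liver arrays lowered the spread pooled in this test. The call was lost under 15 of 20 alternatives, whose adjusted p ran from 0.00942 to 0.106, among them each array left out in turn except tumor lung replicates 2 and 3. For 1421186_at the difference was 1.99 ± 0.57 (adjusted p = 0.114). Without tumor lung replicate 3 its adjusted p was 0.0101.

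In whole tissue, more cells that carry a transcript and more transcript per cell cannot be told apart. Of the monocyte and macrophage markers 0 of 10 tested were called in lung (2 at an unadjusted limma p under 0.05), and their mean was 8.54, 8.46 and 8.20 in tumor-bearing against 8.21, 8.16 and 8.15 in control lungs. Csf1r, the receptor for macrophage colony-stimulating factor, read 11.07, 11.02 and 11.04 against 10.67, 10.65 and 10.66, a difference of 0.39 (limma adjusted p = 0.102). The neutrophil and B cell markers given above also separated the groups. The part of any of these cell types in the Ccr2 readings was not tested.

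**Figure D2:**
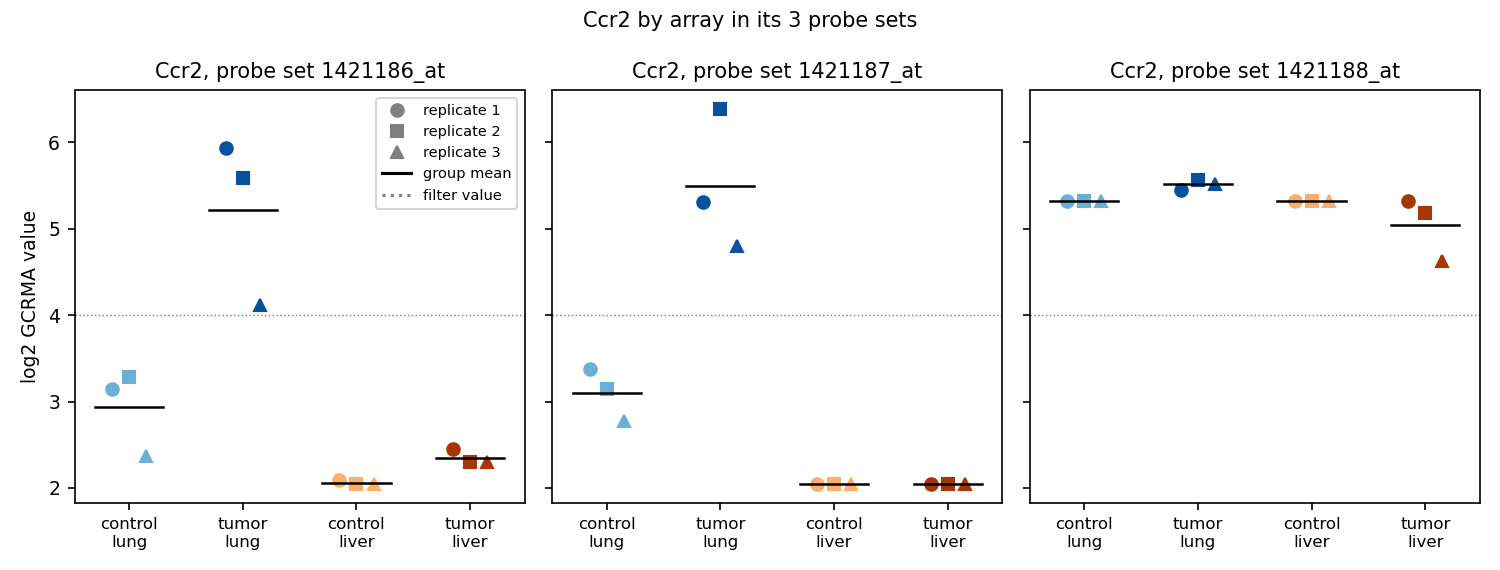
Log2 GCRMA value of the 3 Ccr2 probe sets on each array, with group means as bars, replicate number as symbol and the filter value of 4 dotted. On 1421187_at and 1421186_at the tumor-bearing lungs (4.12 to 6.38) lie above the control lungs (2.37 to 3.38), while 1421188_at reads 4.62 to 5.57 over all arrays.

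The ligands of Ccr2 gave low readings. Ccl2, its main ligand, was at the lowest value on all 6 lung arrays and on the control liver arrays, and read 2.04, 2.89 and 2.62 in tumor-bearing livers. Ccl7, another ligand, stayed between 2.04 and 3.04 on all arrays. Ccl12 did not leave the lowest value. Ccl8, a CC ligand, read 6.45, 4.32 and 4.14 in tumor-bearing against 4.23, 4.27 and 4.37 in control lungs. Only tumor replicate 1 stood apart, the tumor lung array with the most hepatocyte transcripts. The difference of 0.68 (limma adjusted p = 0.694) was -0.058 without that array.

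Cxcl17, a mucosal chemokine made by airway epithelium, had the largest difference among the chemokine genes in lung on the probe sets that represent them. It read 6.81, 5.89 and 5.74 in tumor-bearing lungs against 7.33, 7.65 and 7.99 in control lungs, with means of 6.15 ± 0.58 and 7.66 ± 0.33 (SD, n = 3 each). All 3 tumor arrays lay below all 3 control arrays. The difference was -1.51 ± 0.32 (log2, SE), 2.85-fold lower, with a limma adjusted p of 0.131. It passed the threshold in 1 of 17 alternatives, all 12 arrays in 1 fit (adjusted p = 0.0152), and the adjusted p over the others reached 0.347. In liver it stayed between 3.04 and 3.41, under the filter. The fit of all 12 arrays and the difference between organs pooled the lung spread with the smaller spread of these readings.

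The difference in tumor effect between organs for Cxcl17 was -1.64 ± 0.39 (log2, SE; limma adjusted p = 0.0718). It passed without tumor lung replicate 1 (-1.97, adjusted p = 0.0145) and without both lung arrays rich in hepatocyte transcripts (-1.80, adjusted p = 0.0195), while over its 23 alternatives the adjusted p reached 0.205. Of the 9 lung epithelial markers 0 were called, 1 had an unadjusted limma p under 0.05, and 4 had a higher and 5 a lower mean in tumor-bearing lungs. Their mean was 13.61, 13.51 and 13.43 in tumor-bearing against 13.66, 13.97 and 13.92 in control lungs, without overlap. Without Foxj1 the mean of the other 8 was 14.93, 14.78 and 14.73 against 14.85, 14.92 and 14.92, with overlap. Foxj1, which drives the making of motile cilia, read 3.11, 3.39 and 3.07 against 4.17, 6.42 and 5.89 (-2.31, adjusted p = 0.174). The part of sampled airway in the Cxcl17 readings was not tested.

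Among the interferon-induced ligands, Cxcl10 read somewhat higher in tumor-bearing mice in both organs. In lung it read 5.92, 7.04 and 6.32 in tumor-bearing against 5.76, 5.87 and 5.72 in control mice. In liver it read 6.89, 6.86 and 7.41 against 6.66, 6.32 and 6.24. In each organ the lowest tumor array lay above the highest control array. The differences were 0.64 ± 0.28 in lung (log2, SE; limma adjusted p = 0.414) and 0.65 ± 0.19 in liver (adjusted p = 0.114), and they differed between organs by -0.0064 ± 0.36.

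Cxcl9 and Cxcl11, which share the receptor Cxcr3 with Cxcl10, showed overlapping groups in liver. Cxcl9 read 8.68, 9.87 and 9.10 in tumor-bearing against 8.95, 8.32 and 6.96 in control livers (1.14 ± 0.58; limma adjusted p = 0.272). In lung it was under the filter, reading 2.55, 5.04 and 2.36 in tumor-bearing against 2.04 to 2.07 in control mice, without overlap, although only tumor replicate 2 was clearly off the lowest value (limma adjusted p = 0.825 with no filter). Cxcl11 read 5.66, 6.22 and 6.12 against 6.21, 4.93 and 5.65 in liver. In lung it read 2.89, 4.33 and 4.16 against 4.16, 4.16 and 3.86. The lung difference of -0.27 turned to 0.18 without tumor replicate 1. Its second probe set, 1419698_at, stayed between 2.29 and 3.87 throughout. Cxcr3 itself was at the lowest value on all arrays.

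The neutrophil-attracting ligand Cxcl1 read higher in the livers of tumor-bearing mice. Its liver values were 12.21, 13.24 and 11.45 in tumor-bearing against 10.21, 11.26 and 10.77 in control mice, with means of 12.30 ± 0.90 and 10.75 ± 0.53 (SD, n = 3 each). The lowest tumor array exceeded the highest control array by less than the spread within either group. The difference was 1.56 ± 0.51 (log2, SE), 2.94-fold, with a limma adjusted p of 0.135, which ran from 0.0842 to 0.312 over 16 alternatives.

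In lung Cxcl1 read 7.01, 5.51 and 5.35 in tumor-bearing against 6.14, 6.47 and 6.19 in control mice, and the groups overlapped (-0.31 ± 0.45; limma adjusted p = 0.817). Tumor replicate 1, the highest, is again the array rich in hepatocyte transcripts, and the difference was -0.84 without it. The organs differed in tumor effect by -1.87 ± 0.73 (adjusted p = 0.227). The neutrophil markers of the liver averaged 4.25, 4.00 and 3.96 in tumor-bearing against 2.93, 3.67 and 3.27 in control mice, with 0 of 4 tested called and 3 of them at an unadjusted limma p under 0.05. Their part in the Cxcl1 readings was not tested. Cxcl2 and Cxcl5, which bind the same receptor, were at the lowest value on all arrays, and Cxcl15, a lung ligand of this class, read 14.58 to 15.05 on the lung arrays with a difference of 0.13 (adjusted p = 0.748).

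**Figure D3:**
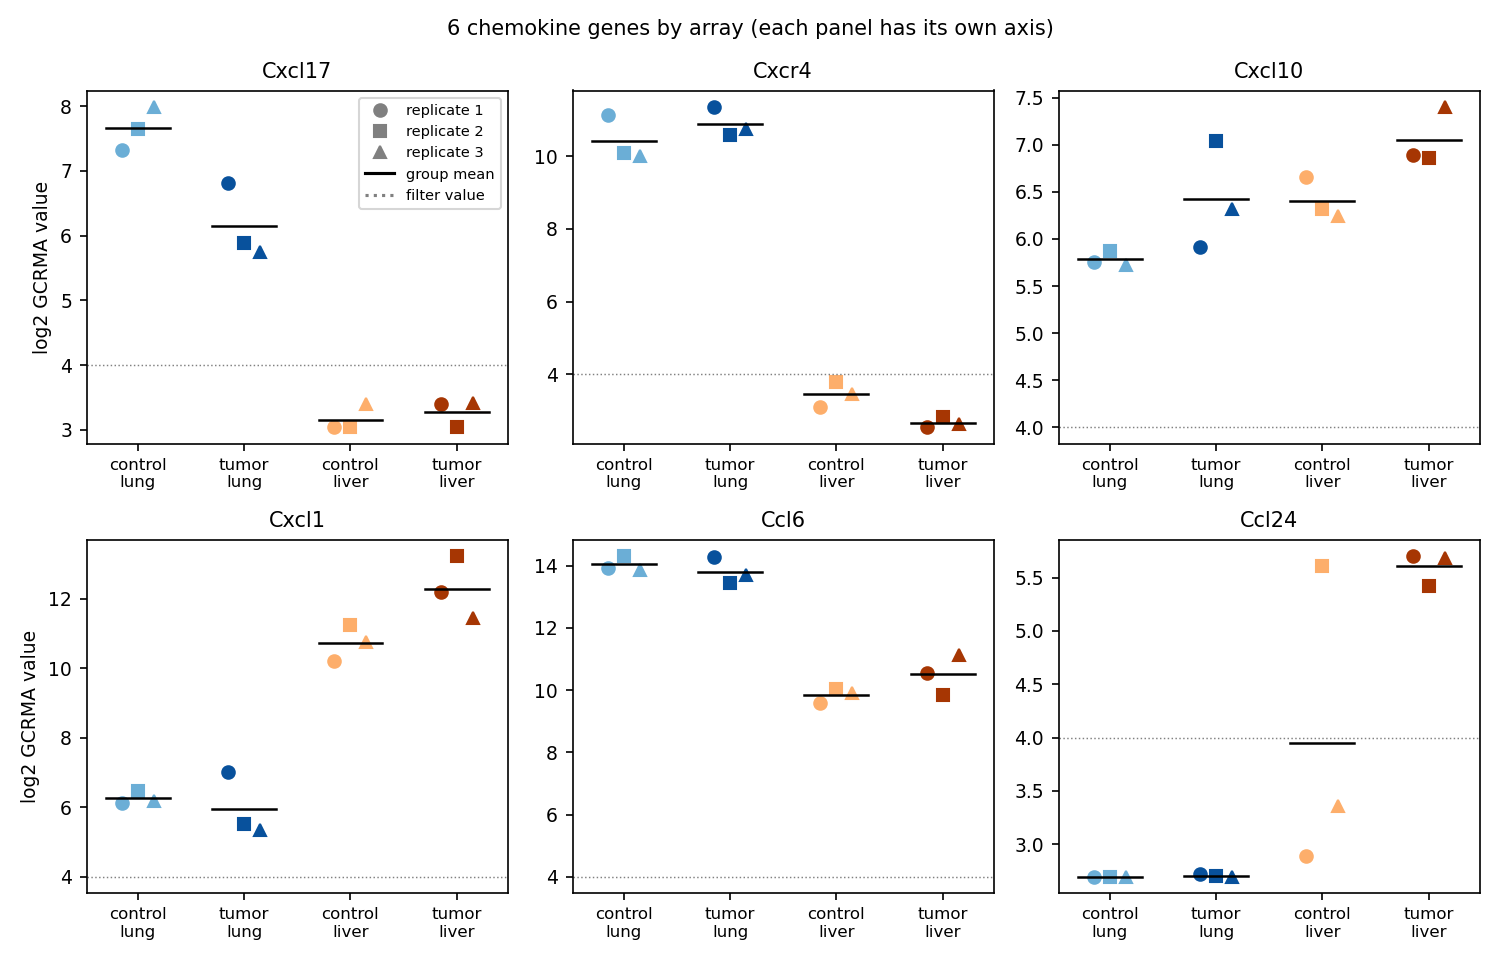
Log2 GCRMA values of Cxcl17, Cxcr4, Cxcl10, Cxcl1, Ccl6 and Ccl24 on each of the 12 arrays, with group means as bars and the filter value of 4 dotted; each panel has its own axis. Tumor-bearing and control lungs separate for Cxcl17 and Cxcl10, and tumor-bearing and control livers for Cxcl1 and Cxcl10.

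The CC ligands Ccl6, Ccl9 and Ccl24 had higher means in tumor-bearing livers, and none passed the test. Ccl6 on its representing probe set read 10.56, 9.85 and 11.14 in tumor-bearing against 9.59, 10.02 and 9.89 in control livers (0.68 ± 0.33; limma adjusted p = 0.259), and the groups overlapped. On its other probe set, 1420249_s_at, it read 9.44, 8.99 and 10.001 against 8.18, 8.63 and 8.51 without overlap (1.04 ± 0.28; adjusted p = 0.101 over every probe set, of which 1.54% were called and 11.7% did not overlap in this direction). Both probe sets thus read higher in tumor-bearing livers. In lung the probe sets gave -0.24 and -0.22, with 13.44 to 14.32 on the representing probe set and overlapping groups.

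Ccl9, a ligand of myeloid cells related to Ccl6, read 12.41, 12.70 and 12.02 in tumor-bearing against 12.12, 12.03 and 11.67 in control livers (0.43 ± 0.21; limma adjusted p = 0.251). In lung it read 10.18, 9.18 and 8.84 against 9.12, 9.01 and 8.69 (0.46 ± 0.35; adjusted p = 0.644). Groups overlapped in both organs, and the lung difference was -0.055 without both arrays rich in hepatocyte transcripts. The second probe set gave 0.51 in liver and 0.52 in lung. Ccl24, an eosinophil attractant, read 5.70, 5.42 and 5.69 in tumor-bearing against 2.89, 5.61 and 3.36 in control livers. Control replicate 2 lay among the tumor arrays, and the difference was 1.65 ± 0.71 (adjusted p = 0.212).

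Ccl24 stayed at 2.70 to 2.72 on the lung arrays, and its tumor effect differed between organs by -1.64 ± 0.76 (limma adjusted p = 0.305). Without control liver replicate 2, the control array that lay among the tumor arrays, it passed the threshold in that comparison. In the liver comparison itself Ccl24 passed in 0 of 16 alternatives, with a lowest limma adjusted p of 0.0803. The macrophage markers of the liver, which include the Kupffer cell genes Clec4f and Vsig4, averaged 10.25, 10.25 and 10.41 in tumor-bearing against 9.91, 10.17 and 9.71 in control mice. Of these markers 13 of 13 tested had a higher mean in tumor-bearing livers, 2 had an unadjusted limma p under 0.05 and 0 were called. Their part in the Ccl6, Ccl9 and Ccl24 readings was not tested.

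The homeostatic ligand Cxcl12 and its receptor Cxcr4 did not pass the test in either organ. Cxcr4 read 11.37, 10.58 and 10.74 in tumor-bearing against 11.14, 10.08 and 10.01 in control lungs (0.49 ± 0.37; limma adjusted p = 0.636), with overlap. In liver it was under the filter at 2.54, 2.82 and 2.63 against 3.09, 3.79 and 3.46, so that all tumor arrays lay below all control arrays at low readings (-0.78 ± 0.21; adjusted p = 0.186 with no filter). The organs differed by 1.27 ± 0.44 (adjusted p = 0.188). Cxcl12 read 10.35, 11.07 and 10.81 against 10.72, 11.13 and 11.09 in lung and 12.36, 12.50 and 12.50 against 12.69, 12.62 and 12.49 in liver. Its differences were -0.24 and -0.15, and its second probe set gave -0.053 and 0.029.

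Cxcl14, an epithelial chemokine, read 9.84, 9.82 and 10.30 in tumor-bearing against 9.63, 10.08 and 9.23 in control lungs (0.34 ± 0.25; limma adjusted p = 0.632). In liver it read 5.67, 3.82 and 4.97 against 4.50, 4.32 and 3.70 (0.65 ± 0.50). Its second probe set, 1418457_at, gave a liver difference of 1.63 ± 0.76 (adjusted p = 0.242 over every probe set), with groups that overlapped. Cxcl16, a membrane-bound ligand, read 7.63, 7.62 and 8.08 against 7.67, 8.14 and 6.92 in liver. That difference of 0.20 turned to -0.13 without control replicate 3. Its receptor Cxcr6 was under the filter. Ccl27a, a skin-homing ligand, read 6.47, 6.46 and 6.31 in tumor-bearing against 6.52, 6.52 and 6.56 in control livers, without overlap and by a narrow margin.

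The membrane-bound ligand Cx3cl1 read 8.23, 8.27 and 8.70 in tumor-bearing against 8.76, 7.82 and 8.15 in control lungs (0.16 ± 0.27; limma adjusted p = 0.848). In liver, under the filter, it read 4.34, 4.25 and 2.53 against 2.37, 2.53 and 2.62. Its other probe sets stayed at 2.04 to 2.96. Its receptor Cx3cr1 read within 0.05 of 4.45 on all 12 arrays with 1 probe set and was at the lowest value with the other. Such flat readings carry no information on a difference. Cxcl13, the B cell ligand, was under the filter and read 3.23, 3.23 and 2.53 in tumor-bearing against 4.78, 3.41 and 3.74 in control livers on its representing probe set, without overlap (-0.98 ± 0.45; limma adjusted p = 0.4 with no filter). In lung it read 2.74 to 4.49 with overlap, its second probe set overlapped in both organs, and its receptor Cxcr5 left the lowest value on 1 array.

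Ccl5, made by NK cells and T cells, was highest on the same lung arrays as cytotoxic lymphocyte genes, 1 array of each group. It read 8.35, 9.89 and 8.52 in tumor-bearing against 9.58, 8.50 and 8.54 in control lungs (0.048 ± 0.50; limma adjusted p = 0.983). Nkg7, a granule gene, read 6.54, 7.98 and 5.86 against 7.19, 5.87 and 5.60. Gzma read 9.79, 10.94 and 9.95 against 10.89, 9.90 and 9.99, and Gzmb read 4.82, 6.33 and 4.03 against 6.19, 4.44 and 4.62. Tumor replicate 2 was the highest and control replicate 1 the second highest lung array for all 4 genes. Nkg7, Gzma and Gzmb were the 3 T and NK cell markers tested in lung. This order was not particular to lymphocyte genes. The platelet chemokines Pf4 and Ppbp were also highest on tumor replicate 2 (13.07 and 12.57) and next on control replicate 1 (12.61 and 11.91). In liver Ccl5 stayed at 4.28 to 4.31.

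A few receptors, chosen after their values were seen, left the lowest value on tumor lung replicate 2, while Cxcr3, Ccr4, Ccr6, Ccr8, Ccr9 and Ccr10 did not. That array read 2.53 for Ccr7, which brings cells to lymph nodes, 2.19 for Cxcr5, 2.37 for the dendritic cell receptor Xcr1, and 3.83 and 3.20 on the probe sets of Cxcr6. Ccr7, Cxcr5 and Xcr1 were at 2.04 on the other 11 arrays, and Cxcr6 at 2.04 to 2.17. The T cell gene Cd3g read 4.21 on this array and 2.04 to 2.55 on the other lung arrays. The T and NK cell markers averaged 4.55 on it against 3.58 to 4.15 on the other lung arrays, with Cd3e, Cd8a and Cd8b1 near the lowest value on all lung arrays. These readings are of 1 array, and with no filter the limma adjusted p of all 4 receptors in lung was 0.901.

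**Figure D4:**
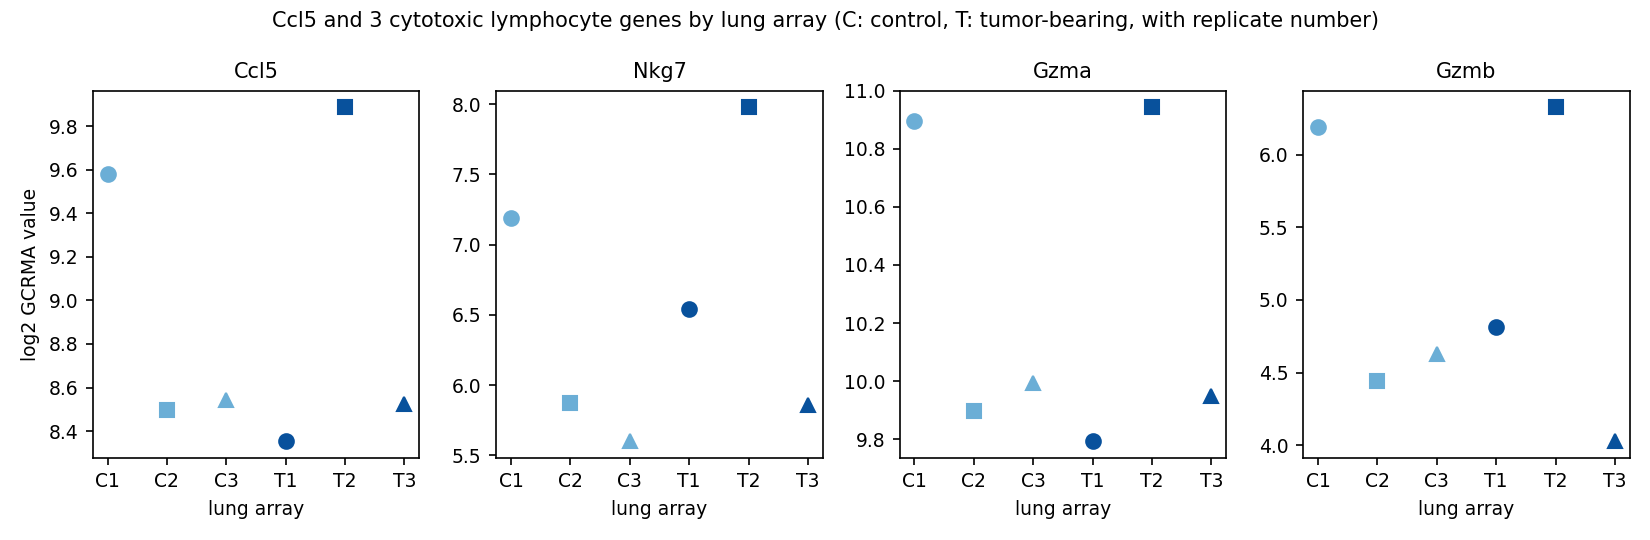
Log2 GCRMA values of Ccl5 and the cytotoxic lymphocyte genes Nkg7, Gzma and Gzmb on the 6 lung arrays (C, control; T, tumor-bearing; each panel with its own axis). Tumor replicate 2 is highest and control replicate 1 next in each panel.

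Some members under the filter in lung still read off the lowest value there. Ccl22, a ligand of dendritic cells and macrophages, read 3.63, 3.36 and 2.88 in tumor-bearing against 2.27, 2.30 and 2.27 in control lungs, without overlap and near the lowest value. Ccl17, which shares the receptor Ccr4 with it, read 3.81, 3.42 and 2.76 against 3.40, 5.49 and 2.73, with overlap. Ccl11, an eosinophil attractant, read 2.43, 3.19 and 2.25 against 2.42, 2.94 and 4.29. Ccl25, the ligand of Ccr9, read 2.30 to 2.49 in lung and 3.37 to 3.87 in liver, while Ccr9 stayed between 2.04 and 2.91. Ccl28 left the lowest value in liver only, at 2.14 to 3.82, and the eosinophil receptor Ccr3 on 1 liver array, at 2.63. None of these passed the filter for the tumor comparisons. With no filter Ccl22 differed in lung by 1.01 ± 0.21 (log2, SE; limma adjusted p = 0.267) and in tumor effect between organs with an adjusted p of 0.0802. The dendritic cell markers averaged 7.29 to 7.62 in tumor-bearing against 7.20 to 7.35 in control lungs, with overlap. Of the 6 tested, 4 had a higher and 2 a lower mean in tumor-bearing lungs, and 1 was called higher, beside 0.62% of all genes tested. Their part in the Ccl22 readings was not tested.

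The control mice give each chemokine's organ baseline, and here the chemokine genes differed widely. Of 19 tested, 9 were higher in lung and 6 lower (limma adjusted p under 0.05), beside 45.6% and 35.5% of the 8270 genes tested, so that the share called was near that of all genes. The median log2 difference of the chemokine genes was 0.24 against 0.18 over all genes. After centring each array on its median, the split over all genes turned from 3768 higher and 2937 lower to 2779 higher and 4126 lower, and the median from 0.18 to -0.30. Of the 15 called, all but Ccl8 kept their direction under each scaling tried.

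Cxcl15, known as lungkine, was the most lung-biased, reading 14.58, 14.65 and 14.71 in control lungs and 2.36, 2.93 and 3.15 in control livers, at least 1601-fold higher (limma adjusted p = 1.18e-07). Cxcr4 was at least 85.0-fold higher in lung (11.14, 10.08 and 10.01 against 3.09, 3.79 and 3.46), Cx3cl1 at least 18.9-fold (8.76, 7.82 and 8.15 against 2.37, 2.53 and 2.62) and Cxcl17 at least 12.6-fold. These 4 genes passed the filter only through the lung arrays. Ccl5, whose 6 liver readings lay within 0.05 of 4.28, was at least 24.1-fold higher. Cxcl14 and Ccl6 were higher by 5.48 and 4.21 (log2), and Cxcl16 by 2.71. For Cxcl16 the lung arrays read 10.36, 10.32 and 10.20 and the liver arrays 7.67, 8.14 and 6.92.

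Liver carried more of the interferon-induced ligands and of Cxcl1. Cxcl9, which passed the filter only through the livers, was at least 16.9-fold higher there, with 8.95, 8.32 and 6.96 against 2.04 to 2.07 in lung. Cxcl1 was higher in liver by 4.48, with 10.21, 11.26 and 10.77 against 6.14, 6.47 and 6.19 (22.3-fold; limma adjusted p = 1.74e-05). Ccl9 was higher in liver by 3.00, Cxcl12 by 1.62, Cxcl11 by 1.53 and Cxcl10 by 0.62. The differences that passed by little were smaller than the shift between scalings. The lung excess of Ccl8, 0.37 (adjusted p = 0.0453), was -0.019 after quantile normalization and -0.097 after median centring. It was also lost with each control array left out in turn except control liver replicate 3.

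**Figure D5:**
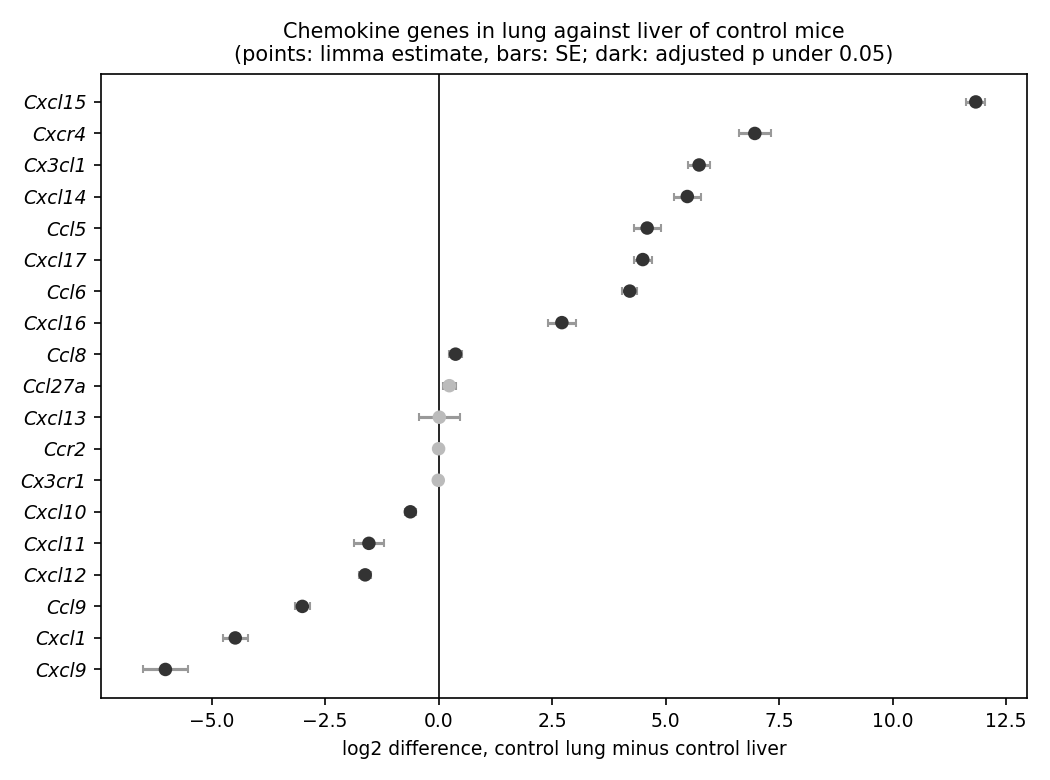
Log2 difference of each tested chemokine gene between control lung and control liver, as limma estimates (points) with standard errors (bars; n = 3 arrays per organ); dark points have an adjusted p under 0.05. Cxcl15 lies highest at 11.8 and Cxcl9 lowest at -6.02, with Ccr2 and Cx3cr1 at 0 on probe sets that hardly vary.

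Genes that act beside or downstream of the receptors were followed as a list of 50, of which 45 had a probe set. In lung 37 were tested, 4 were called higher (0.62% of all genes tested were) and 0 lower in tumor-bearing mice. They were Pik3cd, the leukocyte form of a phosphoinositide 3-kinase catalytic subunit (6.25, 6.42 and 6.28 against 4.58, 4.02 and 4.58; 1.92, limma adjusted p = 0.0143), Was, an actin regulator of blood cells (6.34, 6.03 and 6.35 against 4.83, 5.09 and 4.83; 1.33, adjusted p = 0.019), Ptk2b, a kinase (7.15, 7.29 and 7.33 against 6.53, 6.46 and 6.43; 0.78, adjusted p = 0.0303), and Rac2, a leukocyte GTPase (9.27, 9.42 and 8.89 against 7.27, 7.57 and 6.84; 1.96, adjusted p = 0.0306). The tumor and control arrays did not overlap for any of the 4, as for 8.99% of all genes tested in this direction. Since the 4 were picked by the test on the same arrays, this adds nothing to the calls. Pik3cd read the same value, 4.58, on control lung replicates 1 and 3 and on tumor liver replicate 1. Was read the same value, 4.83, on control lung replicates 1 and 3 and on tumor liver replicates 2 and 3. Such repeated readings may understate the spread among control lungs. Pik3cd, Was and Rac2 are expressed broadly in leukocytes, and the neutrophil and B cell markers of the same arrays separated the groups too. Their part in these calls was not tested.

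The lung calls of this list were few when an array was left out. With each array left out in turn 0 or 1 of the list was called, the 1 being Was without tumor replicate 2 and Pik3cd without control replicate 2, and 0 were called without both arrays rich in hepatocyte transcripts, with the replicate block or with no filter. In liver 31 were tested, 0 were called higher and 1 lower (1.23% of all genes tested were). This was Rgs1, which shortens G protein signals of chemokine receptors in lymphocytes (3.16, 3.41 and 2.60 against 4.38, 4.99 and 4.75; -1.65, limma adjusted p = 0.0484). Rgs1 passed the filter only through the control livers, where it is high, and the liver call was lost with no filter, with a filter above 5 (where it was not tested), with every probe set, with the replicate block and with each liver array left out in turn. The difference between organs for Rgs1 was 1.70 (limma adjusted p = 0.02, beside 1.03% of all genes called in this direction). On the lung arrays Rgs1 read 2.58 to 2.69, under the filter, so this difference is nearly the liver change with its sign turned. Here too it passed the filter only through the control livers, and the small spread of the lung readings lowered the spread pooled in the test. In this comparison 0 of the list were called with a filter above 5, with either replicate block, without control lung replicate 1 or 2, or with the hepatocyte-rich pair of lung arrays dropped.

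Of the atypical receptors in the list, which bind chemokines without G protein signalling, Ackr3, a scavenger of Cxcl12, read 11.53, 11.30 and 11.41 in tumor-bearing against 11.01, 10.71 and 10.68 in control lungs, without overlap (0.61 ± 0.13; limma adjusted p = 0.123). Ackr2, a scavenger of inflammatory CC ligands, read 5.19, 7.63 and 6.88 against 7.42, 8.39 and 7.87, with overlap (-1.33, adjusted p = 0.455). Among the lung arrays the platelet chemokines Pf4 and Ppbp read lowest in tumor replicate 1, at 9.69 and 9.43, and highest in tumor replicate 2, at 13.07 and 12.57.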

How the data were processed

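RNA of 12 lung and liver samples was hybridized to Affymetrix mouse arrays, 1 array per sample. The deposited log2 values per probe set were made by the authors with GCRMA, per the submitters' processing notes, which also name limma; no version or setting stands in the sources used here. The number of arrays limits the precision, and depth does not apply.

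Of 22626 probe sets, 20380 list 1 gene, 691 several and 1555 are not listed; only the first were tested. Of the probe sets of each of the 12393 genes the brightest by mean over all arrays stood for the gene, and every probe set was tested as an alternative. Those reading above 4 on 3 or more fitted arrays entered limma 3.58.1 (lmFit, eBayes) in R 4.3.3, with Benjamini-Hochberg adjustment over all genes and a threshold of 0.05. The difference between organs was the interaction over 12 arrays. Lung and liver arrays were fitted as independent, since no label ties a replicate number to a mouse. The main fits did not use the numbers to pair samples, so lung and liver of the same mouse were treated as unrelated. Where nothing says more of a sample's origin, p-values measure the spread between these samples.

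Members and lists were chosen with earlier results of these data known. Array values are given for members past a threshold, the 10 with the largest change per organ, the largest baseline differences, ligand-receptor pairs and, as chosen after seeing values, readings under the filter, flat or of 1 array, and the atypical receptors and platelet chemokines. On simulated data with 200 changed genes, limma called 65% (lung), 67% (liver) and 47.5% (difference between organs) of genes shifted by 1 on the log2 scale. Of those shifted by 2 it called 90%, 94.5% and 89%. The changed genes were drawn from those with a mean above 5, with normal noise of 1 SD per gene over all groups. For the difference between organs each gene first had the same mean in both organs. These rates do not cover genes near the lowest value or with unequal spread between groups. The alternatives covered filter, probe sets, scaling, weights per array, trend and robust eBayes, a joint fit of 12 arrays, the replicate block and arrays left out.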

Additional observations from a re-analysis of the deposited data

Results flagged for a closer look

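The tumor effect on Ccr2 probe set 1421187_at differed between lung and liver by 2.40 (log2) in limma's test of that difference over every probe set (adjusted p = 0.0372). The 3 tumor-bearing lungs lay above the 3 control lungs, and the 6 liver arrays were at the lowest value. These liver arrays had no spread, which lowered the spread pooled in the test. The call rests on the choice of this probe set, which passed the filter only through the tumor-bearing lungs. With no filter the adjusted p was 0.0797, and the call was lost under 15 of 20 alternatives.

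Probe sets that list several genes took no part in the comparisons. Only the 4 that name a chemokine gene were looked at, and 2 of them read higher on all tumor-bearing than on all control arrays of 1 organ. Among the tested probe sets of 1 gene, arrays did not overlap in this direction for 8.1% in lung and 11.7% in liver. Probe set 1449277_at, which lists 10 genes with Ccl19 among them, read 6.42, 5.84 and 6.22 in tumor-bearing livers, where controls read 5.46, 5.32 and 5.06, a difference of 0.88. Ccl19 attracts Ccr7-bearing cells, and which listed gene gave the reading cannot be told apart. Probe set 1430375_a_at, which lists 5 genes with Ccl27a among them, read 3.97, 4.14 and 3.98 against 3.77, 3.90 and 3.93 in lung, a difference of 0.16 near the filter value. Neither difference was tested.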

How the results depend on the processing

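The count of chemokine genes past the threshold stayed at 0 in liver under the 17 alternatives run, and in lung under 17 of 18, with all 12 arrays in 1 fit giving 1 (Cxcl17). In the difference between organs it was 0, and 1 with an adjusted p under 0.10 (Cxcl17), with every probe set or the mean of probe sets (Ccr2) and without both lung arrays rich in hepatocyte transcripts (Cxcl17); with single arrays left out it was 0 to 1. The baseline count of 15 ran from 14 to 15 with single arrays left out.

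Over all genes, 58 were called in lung. The count was 11 with no filter, 114 with trend and robust eBayes, 99 with array weights, 231 with all 12 arrays, 0 without both arrays rich in hepatocyte transcripts (769 at an unadjusted p under 0.05 in limma) and 5 to 33 with single arrays left out. In liver 144 were called, and 62 with no filter, 233 with a filter above 5, 222 with median centring, 422 with trend and robust eBayes, 729 with all 12 arrays and 0 to 1 with single arrays left out. In the difference between organs 131 were called, 64 without both arrays and 57 to 145 with single arrays left out. In the baseline 6705 were called, and 10097 probe sets with every probe set tested.

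Samples share only a replicate number, and tumor and control arrays of the same number correlated at -0.36 to 0.28 in lung; not every array there correlated best with its own number. Lung and liver arrays of a condition correlated at 0.024 to 0.086 with the same number, and each of the 12 best with its own, a hint from the data and not the design. A block of those pairs, chosen after seeing the data, gave 14 genes in the difference between organs and 0 chemokine genes. With the replicate number as a block 1 gene was called in lung, 0 in liver (1791 at an unadjusted p under 0.05 in limma) and 21 in the difference between organs; no count of chemokine genes moved, and 0 of the pathway list were called in lung, liver or the difference between organs.

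Signs turned in lung for Ccl8 (-0.0582 to 1.10 with single arrays left out, reversed without tumor replicate 1), Cxcl11 (-0.54 to 0.18, likewise) and Ccl6 probe set 1420249_s_at (-0.54 to 0.0069, reversed without tumor replicate 2). They turned for Ccl8 (-0.0185), Cxcl11 (0.083), Ccl9 (-0.0553) and Cxcl12 (0.0107) when both of the hepatocyte-rich arrays were dropped. In liver Cxcl16 ran from -0.13 (without control replicate 3) to 0.48. In the baseline Ccl8 was -0.0193 after quantile normalization and -0.0973 after median centring. None of these tumor differences had passed. The cause was not tested where it is more than fewer arrays or probe sets. Readings under the filter limit what can be said of the 28 members that were tested for a tumor difference in neither organ.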
